A study of Mus musculus with 6 samples.

Results

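The genes described here encode the proteins of the mitochondrial ribosome. They were chosen by symbol: Mrpl or Mrps followed by digits and at most one letter. The rule found 77 genes among 24411 listed, and all 77 passed the filter on low counts that left 15519 genes to be tested. Of the 77, 50 encode proteins of the large subunit and 26 encode proteins of the small subunit. The remaining one, Mrps36, encodes a component of the oxoglutarate dehydrogenase complex of the citric acid cycle and is not a ribosomal protein despite its name. Mrps18a and Mrps30 are counted with the large subunit, where their proteins sit, although their symbols say small.

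Whole cerebellum was taken from mice of postnatal day 18 for bulk RNA sequencing, giving 3 wild-type (WT) libraries and 3 libraries of an Atoh7 Remote Enhancer KO. The knockout removes a distant regulatory element of Atoh7, a transcription factor gene known for its role in the birth of retinal ganglion cells. The labels give no strain, sex or number of animals per library, so p-values measure the spread between these libraries, which may be technical. The tissue field of the labels reads retina, while the series title and protocol name the cerebellum. Summed counts per 1000000 scaled reads (CPM) of 5 Purkinje cell markers were 2900.9 to 4039.2 in the 6 libraries, and those of 5 photoreceptor markers were 0.681 to 1.13.

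Mitochondria keep a small genome that encodes core subunits of the respiratory chain, and a dedicated ribosome inside the organelle translates them. The RNAs of this ribosome come from the mitochondrial genome, whereas every one of its proteins is encoded in the nucleus, made in the cytosol and imported. Some of the proteins descend from bacterial ribosomal proteins, and others were added during the evolution of mitochondria. Neurons such as Purkinje cells depend on the respiratory chain for most of their energy.

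The genes are scattered over the genome, with 10 on chromosome 11, 8 on chromosome 17, 7 on chromosome 6 and none on chromosomes 12, 18, X and Y. Many start next to another gene. In the GENCODE annotation of GRCm38, 33 of the 77 (42.9%) had the start of a protein-coding gene on the opposite strand within 1000 bases, against 14.6% of 14208 protein-coding genes tested. Several of these neighbours also serve mitochondria: Mrps12 lies head to head with Sars2, the mitochondrial seryl-tRNA synthetase, Mrpl47 with Ndufb5 and Mrpl36 with Ndufs6, both subunits of respiratory complex I, and Mrpl46 with Mrps11, another gene of the set. Mrpl43 lies head to head with the gene of the mitochondrial DNA helicase, named Peo1 in the count tables.

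Promoter windows from 250 bases before to 50 bases after the start were at hand for 68 of the 77 genes (RefSeq, GRCm38.p6). Both strands were searched for exact letters. Some genes had several windows, and a match in any of them counted for the gene. The NRF1 motif, in capitals for Mrpl12 below, is bound by a factor known to drive nuclear genes of mitochondrial proteins. Any base was allowed in place of the C just before its T. The NRF1 motif was found for 13 genes (19.1%), against 10.3% of the 11610 tested genes with a window. The ETS motif, ACTTCCG, the core bound by GABP among other factors, was in 17 (25%) against 13%. The YY1 motif, AAGATGGCG, was in 8 (11.8%) against 3.07%. At least one of these motifs was found for 35 of the 68 genes (51.5%) and for 23.8% of tested genes with a window. The SP1 motif, GGGCGG, was in 34 (50%) against 66.8%, CCAAT in 39.7% against 42.3% and TATAAA in 7.35% against 8.99%. A match is a run of letters, not a binding site, and no binding was measured here.

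The following stretches lie just upstream of the RefSeq start, outside annotated exons, and are read 5′ to 3′ on the strand of the gene. Mrpl43 and Mrps27 show the ETS letters in capitals, on the opposite strand in the case of Mrpl43. Mrpl12, Mrpl9 and Mrpl17 show the NRF1 letters in capitals. The NRF1 match of Mrpl17 is on the opposite strand, and that of Mrpl9 reads on both strands. They are shown because Mrpl43 is the gene that passed the test below and Mrpl12 is among the most abundant. The other stretches show how the same motifs recur, on either strand, in otherwise different upstream sequence. The positions on GRCm38.p6 are chr19:45006443-45006532 on the minus strand, chr13:99344706-99344785 on the plus strand, chr11:120484523-120484612 on the plus strand, chr3:94443228-94443317 on the plus strand and chr7:105811100-105811189 on the minus strand.
Mrpl43: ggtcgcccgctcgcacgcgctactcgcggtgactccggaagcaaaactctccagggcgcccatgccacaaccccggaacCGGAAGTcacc
Mrps27: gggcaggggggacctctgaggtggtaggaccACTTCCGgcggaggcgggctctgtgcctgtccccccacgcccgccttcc
Mrpl12: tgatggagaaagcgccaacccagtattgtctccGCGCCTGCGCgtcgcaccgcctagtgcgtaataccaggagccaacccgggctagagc
Mrpl9: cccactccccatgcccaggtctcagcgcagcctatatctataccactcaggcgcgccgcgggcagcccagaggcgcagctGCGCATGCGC
Mrpl17: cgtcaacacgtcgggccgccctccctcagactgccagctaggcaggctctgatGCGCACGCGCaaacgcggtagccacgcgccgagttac

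The libraries held 16340132 to 34438262 reads assigned to genes, of which 9769 to 60906 fell on the mitoribosomal protein genes. WT replicate 3 stood apart: Rn45s, which encodes the precursor of cytosolic ribosomal RNA, took 63.2% of its gene reads, while the others gave it 1.28% to 3.04%, and 6015125 reads were left to all other genes. Reads outside annotated genes made up 34.3% ± 3.64 (SD, n = 3) of all reads tallied in the tables in WT and 17.3% ± 0.252 (SD, n = 3) in KO, without overlap. Summed endothelial markers were 113.6 to 129.6 CPM in WT and 83 to 84.7 CPM in KO, with 4 of 5 lower in KO at an adjusted p under 0.05. Oligodendrocyte markers summed to 21481.8 to 24575 CPM in WT and 27372.7 to 29467.2 CPM in KO, with 0 of 5 called by edgeR. Microglial markers summed to 101.5 to 117.8 CPM in WT and 119.5 to 126.3 CPM in KO, with 1 of 5 higher. The sums of Purkinje, granule neuron and Bergmann glia markers overlapped between the groups, with 1 of 5 called in each list, lower for granule neurons and higher for the other two. Xist, which is transcribed in female cells, had 31134 reads in WT replicate 1 and 0 to 10 in the other libraries. The part of these differences in the values below was not tested. Atoh7 itself, whose coding sequence is not described as altered, was at 1.64 CPM ± 0.51 (SD, n = 3) in WT and 1.58 CPM ± 0.559 (SD, n = 3) in KO, and its difference did not pass the test (log2 -0.18, SE 0.28, edgeR adjusted p = 0.706). In bulk tissue, fewer cells of a type and less RNA per cell cannot be told apart.

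Levels within the set were compared per kilobase of the longest annotated transcript, as CPM per kilobase (RPKM). Mean levels over the 6 libraries ran from 2.02 to 43.6 RPKM with a median of 9.78. The highest were Mrpl41 at 43.6 RPKM, Mrps21 at 41.8 RPKM, Mrpl12 at 32.8 RPKM, Mrpl20 at 26 RPKM and Mrpl34 at 25.2 RPKM. Mrpl41 encodes a large-subunit protein with no bacterial counterpart. Mrps21, Mrpl20 and Mrpl34 correspond to bacterial S21, L20 and L34. Mrpl12 corresponds to bacterial L12 of the ribosomal stalk, which recruits translation factors. Within each group the order of the first 2 was not set apart by their spread: in WT Mrpl41 was at 42.4 RPKM ± 1.06 and Mrps21 at 41.6 RPKM ± 4.56, and in KO they were at 44.8 RPKM ± 1.95 and 42 RPKM ± 4.41 (SD, n = 3 each).

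The lowest levels per length were those of Mrpl23 (2.02 RPKM), Mrps35 (2.24 RPKM), Mrpl13 (2.97 RPKM), Mrpl47 (3.05 RPKM) and Mrps17 (3.28 RPKM). Mrpl23 corresponds to bacterial L23 at the exit of the peptide tunnel, Mrpl13 to bacterial L13, Mrpl47 to bacterial L29 and Mrps17 to bacterial S17. The low places of Mrpl23 and Mrpl13 rest on long annotated transcripts. With the length of the longest protein-coding transcript, a choice made after seeing the data, Mrpl23 was at 10.2 RPKM and Mrpl13 at 14.6 RPKM. Under the same choice Mrpl42 moved from rank 44 to rank 2, at 42.5 RPKM. Mrps35, Mrpl47 and Mrps17 stayed among the lowest under both lengths, at 2.48, 3.05 and 3.28 RPKM.

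**Figure D1:**
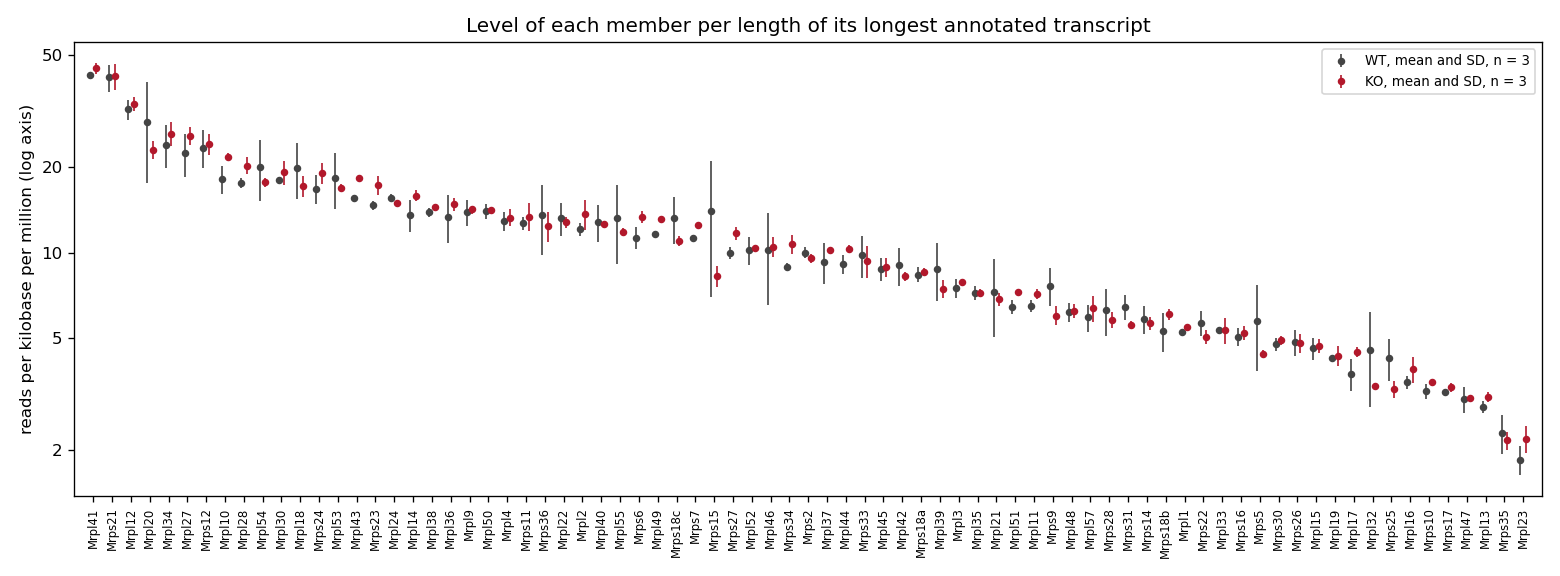
Mean level of each of the 77 genes in WT (grey) and KO (red), in RPKM by the longest annotated transcript on a log axis, with SD bars (n = 3 each). The genes run from Mrpl41 at 43.6 to Mrpl23 at 2.02, and the wide grey bars, such as those of Mrps15, Mrpl20 and Mrpl32, come with a WT replicate 3 above the other WT libraries.

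The comparison of KO with WT asks whether loss of the enhancer goes with a change in the transcripts of the mitochondrial ribosome. Fold changes were small throughout the set. One gene of 77 (1.30%), Mrpl43, passed the edgeR quasi-likelihood test at an adjusted p under 0.05 over all genes, and it was higher in KO. Among all 15519 genes tested, 16.7% passed, 6.43% higher and 10.2% lower, and among the 7025 genes within the CPM range of the set (4.71 to 43.1) 16.2% passed. No gene of the set was called lower by edgeR or by DESeq2. At an unadjusted edgeR p under 0.05 there were 13 (16.9%, 11 higher and 2 lower), against 32.5% of all genes, and 14.7% of all genes on the higher side. DESeq2 called 0 of 77 in either direction, against 16.8% of all genes (7.70% higher and 9.09% lower), with 13 at an unadjusted p under 0.05, against 23.1%.

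The median log2 fold change of the 77 genes was 0.05, with 51 above 0 and 26 below, beside -0.0055 for all genes tested, of which 49.2% were above 0. The median size of the log2 change, sign aside, was 0.0947 in the set and 0.1718 over all genes. The 95% interval of the fold change lay within 1.5-fold in both directions for 72 of 77 genes (93.5%), against 68.3% of all genes and 81.0% of those in the same CPM range. The other 5 were Mrps15, Mrpl20, Mrps5, Mrpl32 and Mrpl46, each with a WT replicate 3 above WT replicates 1 and 2. A fold change over 1.5 was seen for 1 gene, Mrps15, or 1.30%, against 8.02% of all genes.

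**Figure D2:**
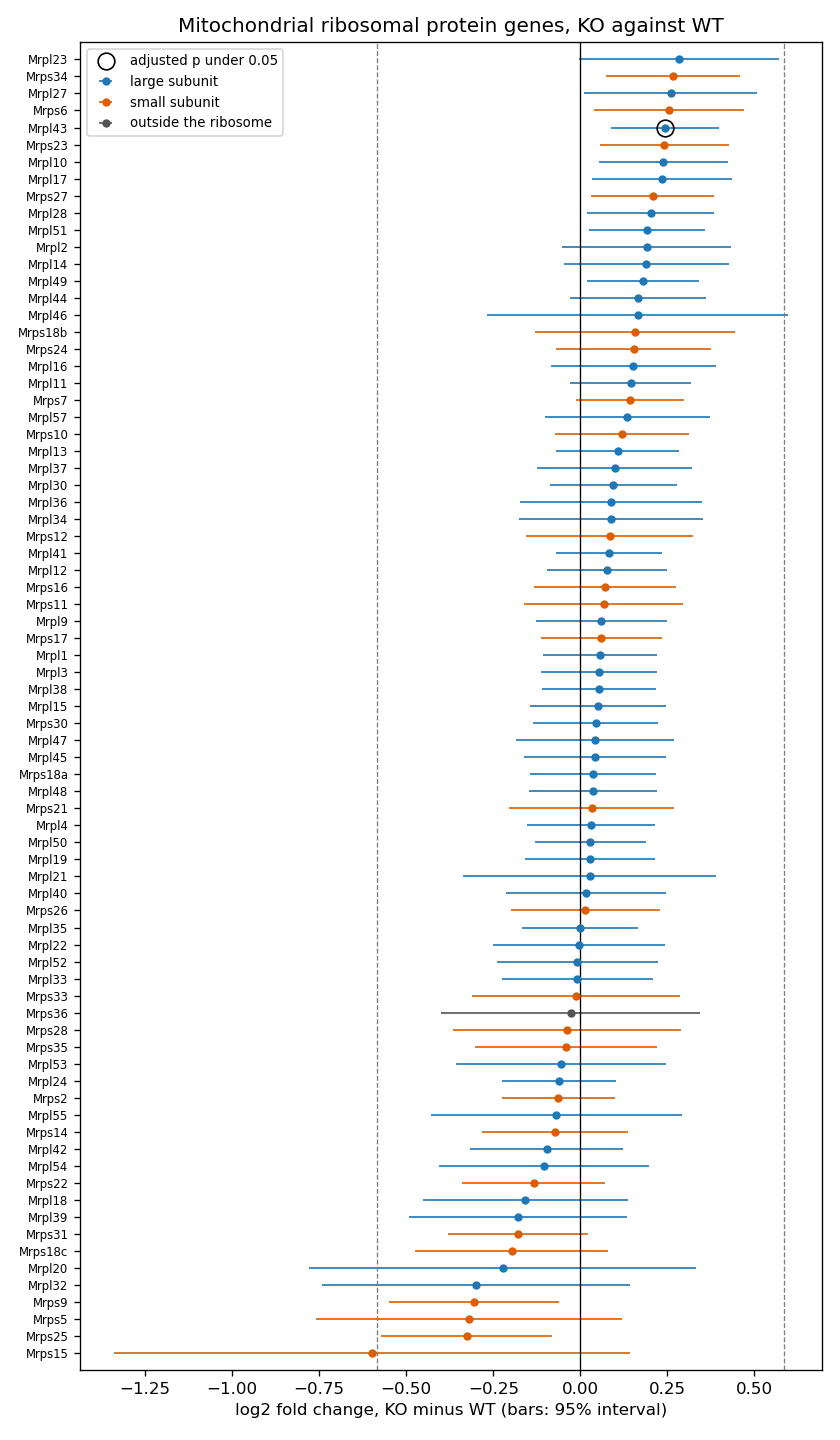
Log2 fold change of each gene, KO minus WT, with its 95% interval from edgeR, coloured by subunit, with dashed lines at 1.5-fold. Of the 77 points, 51 lie above 0 and 1, Mrps15, lies beyond a dashed line; the circle marks Mrpl43, the gene past the test.

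**Figure D3:**
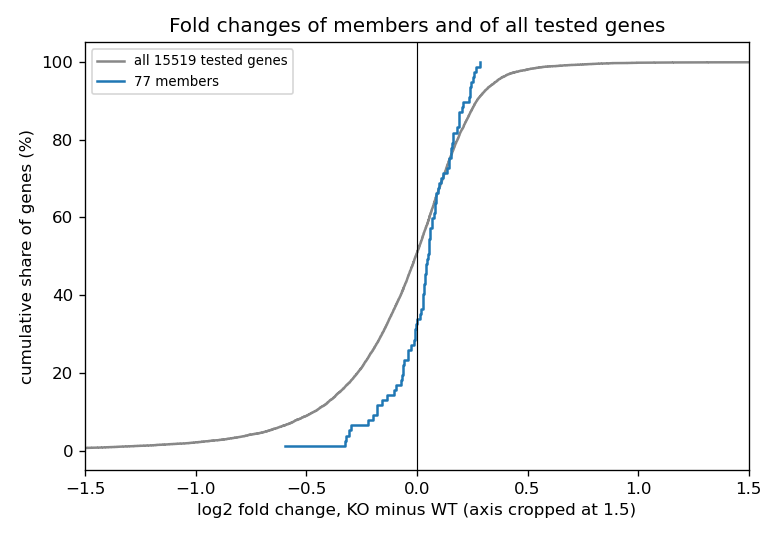
Cumulative share (percent) of the 77 genes and of all 15519 tested genes by log2 fold change, KO minus WT, with the axis cropped at 1.5 on both sides. The set rises more steeply, between -0.60 for Mrps15 and 0.28 for Mrpl23, and it shows no tail like that of all genes on the lower side.

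Among large-subunit genes, 1 of 50 passed the test and the median log2 fold change was 0.0538, with 37 above 0. Mrpl43 encodes a large-subunit protein that bacteria lack; the gene lies at chr19:45004829-45006442 on the minus strand. Its level was 21.8, 21.4 and 22.3 CPM in the WT libraries and 26.1, 25.3 and 25.9 CPM in the KO libraries. All 3 KO libraries were above all 3 WT libraries, and both groups were narrow. The log2 fold change was 0.24 (SE 0.07, edgeR adjusted p = 0.0402). This call is close to the threshold: leaving out any library other than WT replicate 3 ended it, and DESeq2 gave an adjusted p of 0.053. The edgeR adjusted p was 0.131 with totals less Rn45s in place of TMM scaling and 0.0865 with GC and length offsets. It was 0.13 with a read assignment covariate. That covariate sets the reads that fell outside genes against gene reads without Rn45s, on a log2 scale. Rn45s took 63.2% of the gene reads of WT replicate 3, so leaving it out sets that library further apart. An exon stretch of 507 of its 1520 exon bases overlaps the helicase gene on the opposite strand, which was at 9.74 CPM ± 0.696 (SD, n = 3) in WT and 9.9 CPM ± 0.366 (SD, n = 3) in KO.

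Mrpl10, which corresponds to bacterial L10 and anchors the stalk, was at 32.8, 33.5 and 27 CPM in WT and 36.6, 38.6 and 36.7 CPM in KO. The groups did not overlap, but the log2 difference of 0.24 (SE 0.08) did not pass (edgeR adjusted p = 0.0768). Its partner in the stalk, Mrpl12, was at 42.2 CPM ± 3.48 (SD, n = 3) in WT and 44.1 CPM ± 2.45 (SD, n = 3) in KO, with overlapping groups. Further genes with an unadjusted p under 0.05 and higher values in KO were Mrpl17, Mrpl27, Mrpl28, Mrpl49 and Mrpl51, with log2 differences of 0.18 to 0.26 and edgeR adjusted p from 0.104 to 0.136. They are named here after their values were seen. Mrpl17 corresponds to bacterial L17 beside the peptide tunnel; its libraries held 29.5, 29 and 23.1 CPM in WT and 32.9, 31.1 and 33.8 CPM in KO. Mrpl27 corresponds to bacterial L27, which reaches toward the peptidyl transferase centre. Its libraries held 15.3, 15.3 and 20.3 CPM in WT and 18.3, 21 and 19.6 CPM in KO, so that WT replicate 3 lay inside the KO range.

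Of the large-subunit genes whose protein has a counterpart in the bacterial large subunit, 0 of 30 passed edgeR, with a median log2 fold change of 0.0586. Of the large-subunit genes without one, which include Mrps18a, 1 of 20 passed, with a median of 0.0431. Mrps30, a large-subunit protein under a small-subunit name, was at 18.1 CPM ± 0.942 (SD, n = 3) in WT and 18.6 CPM ± 0.705 (SD, n = 3) in KO. The difference was within the spread (log2 0.04, SE 0.08).

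Among small-subunit genes, 0 of 26 passed edgeR and 0 passed DESeq2, and the median log2 fold change was 0.0236 with 14 above 0 and 12 below. Mrps34 encodes a small-subunit protein absent from bacteria, known from patients with Leigh syndrome, a mitochondrial brain disease. It was at 16.5, 17.4 and 16.4 CPM in WT and 18.4, 21.2 and 21.1 CPM in KO. The groups did not overlap, with a log2 difference of 0.27 (SE 0.09, edgeR adjusted p = 0.0597). Part of its exons, 763 of 2064 bases, overlaps Nme3 on the same strand, and 1309 overlap Mapk8ip3 on the other.

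Mrps23, also without a bacterial counterpart, was at 20.8, 19.8 and 21.2 CPM in WT and 25.3, 25.4 and 22.1 CPM in KO. KO replicate 3 lay closest to WT, and the log2 difference was 0.24 (SE 0.08, edgeR adjusted p = 0.0726). Mrps6, which corresponds to bacterial S6, and Mrps27, a pentatricopeptide protein whose upstream stretch is printed above, also had every KO library above every WT library. Mrps27 was at 19.1, 19 and 17.5 CPM in WT and 21.2, 22.9 and 20.7 CPM in KO (log2 0.21, SE 0.08, edgeR adjusted p = 0.102), and Mrps6 differed by log2 0.26 (SE 0.10, edgeR adjusted p = 0.0971). Mrps9, which corresponds to bacterial S9, was lower in every KO library, at 17, 16.6 and 21.7 CPM in WT and 13.3, 15.5 and 14.6 CPM in KO. The log2 difference of -0.31 (SE 0.11) did not pass (edgeR adjusted p = 0.0834).

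Mrps15, which corresponds to bacterial S15, gave the largest difference of the set and is named after its values were seen. WT held 10.5, 10.1 and 22.9 CPM and KO held 9, 9.04 and 7.74 CPM. WT replicate 3 was far above the other WT libraries. The log2 difference of -0.60 (SE 0.31) did not pass (edgeR adjusted p = 0.235). Mrps5, which corresponds to bacterial S5, had the same shape, at 20.8, 20.8 and 35.8 CPM in WT and 20, 19.9 and 18.8 CPM in KO (log2 -0.32, SE 0.19). Without WT replicate 3 the log2 differences were -0.25 for Mrps15 (edgeR adjusted p = 0.0941) and -0.08 for Mrps5 (edgeR adjusted p = 0.435), and with the read assignment covariate both turned positive, at 0.36 and 0.33, without passing.

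Mrps18a, Mrps18b and Mrps18c descend from bacterial S18. Mrps18c keeps its place in the small subunit, Mrps18b lies elsewhere in the small subunit and Mrps18a lies in the large one. None of the 3 passed edgeR or DESeq2. Per length of transcript, Mrps18c was at 12.1 RPKM, Mrps18a at 8.45 RPKM and Mrps18b at 5.66 RPKM. With the protein-coding transcript length Mrps18a came first, at 21.2 RPKM, so their order depends on the length used. The differences between groups were log2 0.04 (SE 0.08) for Mrps18a, 0.16 (SE 0.13) for Mrps18b and -0.20 (SE 0.12) for Mrps18c. Mrps36, the gene outside the ribosome, was at 9.5 CPM ± 2.66 (SD, n = 3) in WT and 8.72 CPM ± 1.08 (SD, n = 3) in KO, with overlapping groups.

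Groups that did not overlap were counted over the whole set: 15 genes had every KO library above every WT library and 7 had every KO library below, 28.6% together. Among all genes tested the same was true of 39.4%, with 18.9% higher and 20.5% lower, and of 38.7% in the same CPM range. The 15 were made up of 10 large-subunit and 5 small-subunit genes, and the 7 of 2 large-subunit and 5 small-subunit genes. The ratio of summed large-subunit to summed small-subunit CPM was 2.31, 2.33 and 2.18 in WT and 2.43, 2.38 and 2.4 in KO. The groups did not overlap in this ratio; WT replicate 3 was the lowest library. The summed CPM of all 77 genes was 1416.3 ± 85 (SD, n = 3) in WT and 1441.3 ± 26.3 (SD, n = 3) in KO, with WT replicate 3 the highest library at 1514.

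WT replicate 3 held the most extreme value for 66.2% of the 77 genes, the highest for 32 and the lowest for 19, against 62.6% of all genes tested. Relative to the mean of the other WT libraries, 8 genes were over 1.5-fold higher in it and 0 were over 1.5-fold lower. These 8, with log2 differences between WT libraries, were Mrps15 (1.16), Mrpl20 (0.90), Mrpl32 (0.85), Mrpl46 (0.82), Mrps5 (0.78), Mrpl55 (0.72), Mrpl21 (0.71) and Mrps36 (0.65). Over all genes tested, 1087 were that much higher and 926 that much lower. The smallest read count of a gene of the set was 32 in WT replicate 3 and 140 to 195 elsewhere. The median coefficient of variation of the set was 0.104 in WT and 0.0518 in KO, beside 0.102 and 0.0618 over all genes tested.

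Without WT replicate 3, 6 genes passed edgeR, all higher in KO: Mrpl27, Mrpl43, Mrpl46, Mrpl51, Mrps23 and Mrps34. That is 7.79% of the set, against 23.4% of all genes in the same fit (10.2% higher, 13.2% lower), and 0 were lower in this edgeR fit. Mrpl46, a large-subunit protein without a bacterial counterpart, was at 9.76, 8.6 and 16.3 CPM in WT and 12.5, 10.8 and 12.4 CPM in KO. Its log2 difference went from 0.16 (SE 0.19) with all libraries to 0.38 (SE 0.10, edgeR adjusted p = 0.0213) without WT replicate 3. The median log2 fold change of the set was 0.0783 in that fit.

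**Figure D4:**
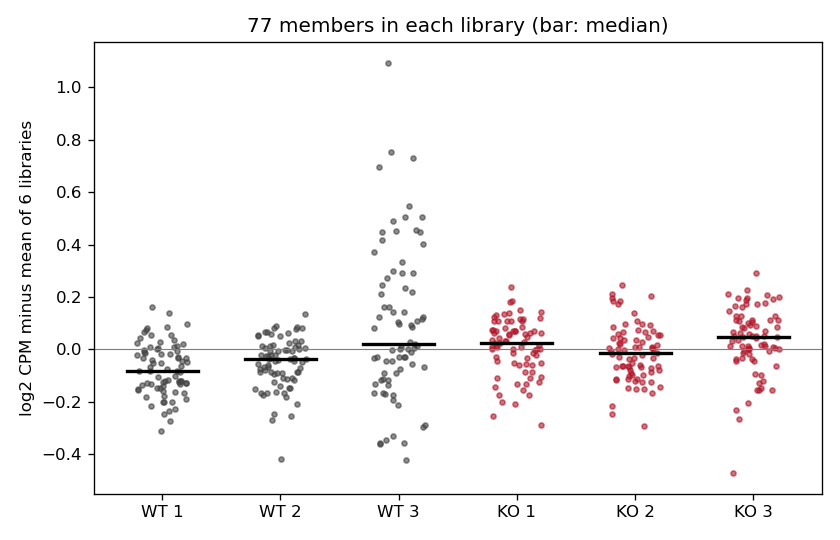
Log2 CPM of each of the 77 genes in each library, minus its mean over the 6 libraries, with a bar at the median (grey WT, red KO). WT replicate 3 spreads widest, with Mrps15 at the top, while the other libraries lie closer to 0.

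The counts are strand-specific, which matters where genes overlap. For 71 of the 77 genes, reads on the opposite strand made up under 5% of all reads at the gene, and the median was 0.509%. Mrps25, a small-subunit gene at chr6:92169525-92184033 on the minus strand, was the one gene with more opposite reads than reads of its own, 74.1%. Nr2c2, a nuclear receptor gene on the other strand, overlaps 4590 of its 6576 exon bases. The opposite share was 71.1%, 71.2% and 65.4% in WT and 75%, 77.9% and 75.7% in KO, without overlap between the groups. On its own strand Mrps25 held 23.1, 23.3 and 30.7 CPM in WT and 21.2, 18.4 and 20.2 CPM in KO, with a log2 difference of -0.33 (SE 0.11, edgeR adjusted p = 0.0688). Without WT replicate 3 the difference was -0.21 (edgeR adjusted p = 0.0667). Nr2c2 was at 129.7 CPM ± 4.74 (SD, n = 3) in WT and 141.4 CPM ± 2.4 (SD, n = 3) in KO (log2 0.12, SE 0.06, edgeR adjusted p = 0.183).

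The next by opposite share were Mrpl48 (21.6%, overlapping Rab6a), Mrpl19 (10.9%, overlapping Gcfc2), Mrpl24 (9.9%, overlapping Rrnad1) and Mrpl49 (5.69%, overlapping Syvn1). The share at Mrpl19 was 12.1%, 14.8% and 11.2% in WT and 9.03%, 8.8% and 10.3% in KO. Gcfc2, its overlapping neighbour, fell by 0.56 on the log2 scale (SE 0.12, edgeR adjusted p = 0.012), while Mrpl19 itself was at 21.1 CPM ± 0.515 (SD, n = 3) in WT and 21.6 CPM ± 1.76 (SD, n = 3) in KO. Mrpl24 was at 20.8 CPM ± 0.68 (SD, n = 3) in WT and 20 CPM ± 0.288 (SD, n = 3) in KO (log2 -0.06, SE 0.07), and its neighbour Rrnad1 fell by 0.57 on the log2 scale (SE 0.10, edgeR adjusted p = 0.00498). With the read assignment covariate Rrnad1 was at log2 -0.39 and did not pass (edgeR adjusted p = 0.106), and Gcfc2 lost its call in 3 of 6 fits that each left out a library (the second WT, the first KO or the second KO library). In the unstranded column of the same tables, where reads in overlaps are ambiguous, Mrpl24 kept 0.42 of its strand-specific reads.

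**Figure D5:**
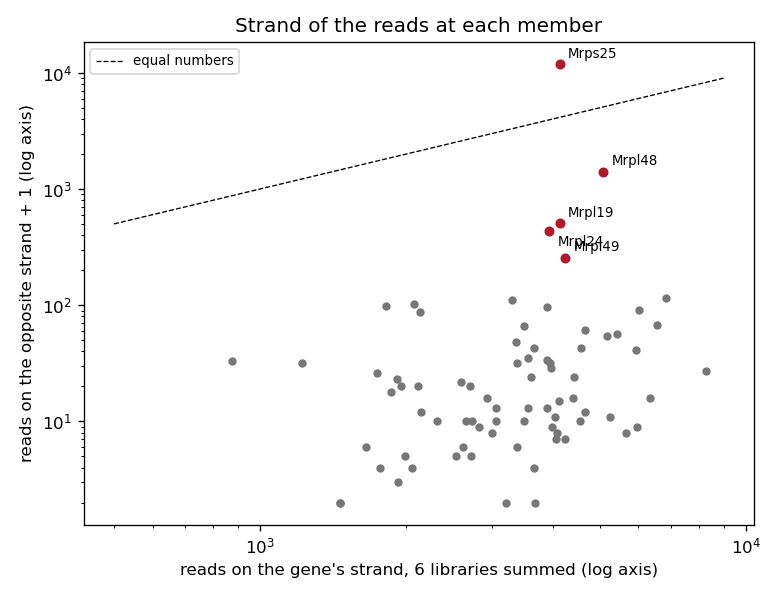
Reads on the strand of each gene and on the opposite strand plus 1, summed over the 6 libraries, both on log axes, with a dashed line of equal numbers. Mrps25 is the one point above the line; Mrpl48, Mrpl19, Mrpl24 and Mrpl49 follow, and the rest lie far below.

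Of the head-to-head neighbours outside the set, which leaves out the pair Mrpl46 and Mrps11, 28 were tested. Of these, 1 was higher and 2 were lower (10.7%, against 16.7% of all genes). Ndufs6, the complex I subunit beside Mrpl36, rose by 0.32 on the log2 scale (SE 0.09, edgeR adjusted p = 0.0424); Mrpl36 was at 12.3 CPM ± 2.36 (SD, n = 3) in WT and 13.6 CPM ± 0.706 (SD, n = 3) in KO. Helq, a DNA helicase gene beside Mrps18c, fell by 0.75 (SE 0.12, edgeR adjusted p = 0.00238). Ncapd2, a condensin subunit gene beside Mrpl51, fell by 0.31 (SE 0.08, edgeR adjusted p = 0.0315), while Mrpl51 was at 22 CPM ± 1.22 (SD, n = 3) in WT and 24.9 CPM ± 0.693 (SD, n = 3) in KO. The call of Ndufs6 was lost without any one library other than WT replicate 3, and that of Ncapd2 without any one other than WT replicates 1 and 3. With the read assignment covariate Ncapd2 was also lost, at log2 -0.15 (edgeR adjusted p = 0.46).

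Other genes of mitochondrial translation were described from 6 lists, each to be read beside the 16.7% of all genes that passed. Of 6 mitoribosomal proteins with other symbols, 1 passed (16.7%): Ptcd3, a pentatricopeptide protein of the small subunit, fell from 43.3 CPM ± 3.6 to 33.8 CPM ± 1.21 (SD, n = 3 each; log2 -0.34, SE 0.08, edgeR adjusted p = 0.0131). Dap3, the small-subunit protein also known for its role in cell death, was at 43.4 CPM ± 5.74 (SD, n = 3) in WT and 46.1 CPM ± 1.82 (SD, n = 3) in KO. Of 30 assembly factors, 2 were higher and 1 lower. Noa1, a GTPase, was higher by log2 0.37 (SE 0.11, edgeR adjusted p = 0.043) and C1qbp by 0.21 (SE 0.06, edgeR adjusted p = 0.0471). Mettl17, which acts in small-subunit assembly, fell from 11.8 CPM ± 1.42 to 8.04 CPM ± 0.877 (SD, n = 3 each; log2 -0.59, SE 0.12, edgeR adjusted p = 0.00867).

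Of 12 translation factors, 0 were higher and 3 lower (25.0%). Guf1, the mitochondrial counterpart of the bacterial elongation factor LepA, was at 28.6, 29.2 and 30.2 CPM in WT and 17.5, 20 and 18.1 CPM in KO. The groups lay well apart (log2 -0.66, SE 0.08, edgeR adjusted p = 0.00058). Gfm2, which helps to recycle ribosomes after termination, fell by 0.30 on the log2 scale (SE 0.07, edgeR adjusted p = 0.0232). The release factor Mtrf1l fell by 0.48 (SE 0.13, edgeR adjusted p = 0.0296). Of 22 aminoacyl-tRNA synthetases, Kars was higher by log2 0.25 (SE 0.07, edgeR adjusted p = 0.0296) and Aars2 lower, at -0.31 (SE 0.09, edgeR adjusted p = 0.0399), which is 9.09%.

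Of 26 genes that maintain or express mitochondrial DNA, 1 was higher and 3 lower (15.4%). Pnpt1, the RNA-degrading polynucleotide phosphorylase, was at 25, 25.9 and 29.6 CPM in WT and 17.1, 16.8 and 15.8 CPM in KO. Every KO library was below every WT library (log2 -0.67, SE 0.09, edgeR adjusted p = 0.000802). Ssbp1, the single-stranded DNA-binding protein of mitochondria, fell by 0.67 on the log2 scale (SE 0.15, edgeR adjusted p = 0.0154), and Mterf1b, of the transcription terminator family, by 1.06 (SE 0.30, edgeR adjusted p = 0.0373) at 0.337 to 1.08 CPM in the 6 libraries. Grsf1, an RNA granule protein named after its value was seen, was higher by 0.20 (SE 0.06, edgeR adjusted p = 0.0489).

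Of 30 genes of protein import, 3 were higher and 0 lower. Tomm20, the outer-membrane receptor for proteins with a targeting presequence, was at 172.9, 165 and 143.2 CPM in WT and 205.5, 238.5 and 228.3 CPM in KO. The groups did not overlap (log2 0.48, SE 0.08, edgeR adjusted p = 0.00456). Tomm22, its partner receptor, was higher by 0.24 (SE 0.07, edgeR adjusted p = 0.0353) and Grpel1, a cofactor of the import motor, by 0.24 (SE 0.07, edgeR adjusted p = 0.0454). Without WT replicate 3, when 23.4% of all genes passed, the counts were 1 higher and 1 lower for the subunits with other symbols, 3 and 3 for assembly factors, 0 and 3 for translation factors, 2 and 5 for synthetases, 1 and 4 for mitochondrial DNA expression, and 4 and 0 for import. Leaving out each library in turn, the calls of Guf1, Pnpt1 and Tomm20 were kept in all 6 fits, that of Mettl17 was lost in 1, that of Ssbp1 in 2 and that of Ptcd3 in 3. Noa1, C1qbp, Gfm2, Mtrf1l, Kars, Aars2, Mterf1b, Grsf1, Tomm22 and Grpel1 each lost the call in 4 or 5 of the 6 fits. In the fit with the read assignment covariate, 9.16% of all genes passed, against 16.7% as reported. Reads outside genes enter this covariate, and their share did not overlap between WT and KO. The covariate therefore cannot be told apart well from genotype. Of the 16 calls named above, 3 were kept in that fit, those of Guf1, Mettl17 and Pnpt1, and 13 were lost. Among the lost were Tomm20 (log2 0.28, edgeR adjusted p = 0.101), Ssbp1 (log2 -0.18, edgeR adjusted p = 0.493), Ptcd3 (log2 -0.18, edgeR adjusted p = 0.258) and Noa1 (log2 0.03, edgeR adjusted p = 0.916). DESeq2 did not call C1qbp, Aars2, Mterf1b or Grpel1.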

How the data were processed

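Bulk RNA-seq of 3 WT and 3 KO cerebellum libraries at postnatal day 18 was used. Per the submitters' processing notes, reads were trimmed with Trimmomatic and aligned to mm10 with STAR; the annotation is not given in the sources used here. The authors deposited whole-number counts per gene in an unstranded and 2 stranded columns. Groups follow the labels; the deposited table of KO replicate 3 is named in a way unlike the other KO tables, and values without that library are in the closing section. The fourth column was used, since it held 55.4 times as many reads as the third. The 4 summary lines of each file do not enter the totals. Reads with several mapping places are not in these gene counts, and reads of near-identical copies remain uncertain.

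Counts were fitted with edgeR 4.0.16 in R 4.3.3 (filterByExpr, TMM, robust quasi-likelihood, Benjamini-Hochberg over 15519 genes, threshold 0.05). CPM are reads per 1000000 of the TMM-scaled library size, and log2 CPM of fits use a prior count of 2. Lengths and overlaps came from GENCODE M21, which matched 24026 of 24411 symbols. DESeq2 1.42.0, limma 3.58.1, other scalings and filters, and single libraries left out were alternatives. On simulated data for KO against WT with 15385 genes, the fit called 62.2% of genes changed by log2 0.5 and 87.9% of those changed by log2 1. The simulation changed 200 genes and drew each gene with the same spread in all libraries, so no library stood apart as WT replicate 3 does. Smaller changes, such as those of most members, were not simulated, and the rates do not describe them.

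The members and lists were chosen with earlier results of these data known. Genes named were those past the test or, if fewer, the 6 with the smallest p; the 5 highest and 5 lowest per length; the Mrps18 paralogs, Mrps30, Mrps36 and Mrpl12; the 5 with the most opposite-strand reads; and up to 3 called genes of each related list.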

Additional observations from a re-analysis of the deposited data

How the results depend on the processing

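The count of members higher in KO was 1 as reported. It was 0 with DESeq2 (7.70% of all genes higher) and 0 with totals less Rn45s in place of TMM (1.28%). It was 2 from the unstranded column (Mrpl43 and Mrps34, against 7.93%), 8 with limma-voom and sample quality weights (11.1%) and 4 with the read assignment covariate (3.61%). With single libraries left out it was 6 without WT replicate 3 (10.2%) and 0 without any other, KO replicate 3 included. All genes called higher were then 6.16% without WT replicate 1 and 2.59% without WT replicate 2. They were 2.27%, 1.88% and 1.56% without KO replicates 1, 2 and 3, against 6.43% as reported. At the lower of these shares, a count of 0 is not a result about the members. Mrpl17 took the place of Mrpl43 with GC and length offsets (8.02% of all genes higher). The count of members lower was 0 (10.2% of all genes lower as reported), or 1 (Mrps25) with quality weights (15.3%). It was 0 with each library left out, against 5.08% to 13.2% of all genes lower. The median log2 fold change of 0.05 stayed between 0.0286 and 0.0804 with single libraries left out. It was 0.1735 with the covariate. The covariate leaves Rn45s out of the gene reads, and within groups it varies almost only through WT replicate 3. The cause of these moves was not tested.

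With the replicate block, 0 members passed and 6.91% of all genes did. The labels do not say that the replicate numbers pair the libraries, and the groups share only numbers. Deviations of libraries with the same number correlated across genes at -0.18, -0.14 and -0.10. Values this weak cannot settle whether libraries were prepared together.

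Some differences changed sign among the 40 genes followed under every setting. None of these passed the test as reported, and 1 passed after the change, Mrpl20 with the covariate (edgeR adjusted p = 0.0197). Members outside these 40 changed sign too. Mrpl55 went from log2 -0.0689 to 0.501 with the covariate and passed (edgeR adjusted p = 0.0419). Mrpl32 went from -0.2992 to 0.3882 with it, and Mrps15 and Mrps5 also turned positive, all without passing. With the covariate, log2 differences became 0.001 for Mrps25, which was -0.3264, 0.5309 for Mrpl20, which was -0.2232, -0.2204 for Mrpl34, 0.2428 for Mrps35, -0.0476 for Mrps18b, 0.1255 for Mrps18c and 0.4696 for Mrps36. With quality weights they were 0.0157 for Mrps35 and 0.0633 for Mrps36, with limma-voom 0.0359 for Mrps36, and with GC and length offsets 0.0187 for Mrps35 and -0.0124 for Mrps18a. Leaving out single libraries gave -0.0676 to 0.0954 for Mrps21, -0.3798 to 0.0506 for Mrpl20, -0.1246 to 0.0452 for Mrps35, -0.0369 to 0.0954 for Mrpl47, -0.0224 to 0.0844 for Mrps18a, -0.1578 to 0.1303 for Mrps36, -0.0214 to 0.081 for Mrpl48 and -0.015 to 0.0944 for Mrpl19. Of 640 values for 40 genes under 16 settings, 515 kept direction and side of the threshold, 94 lost the call, 7 gained one and 24 changed sign. Only genes called as reported could lose a call, and most of the 40 were not called. The 94 losses are therefore not a share of 640. Depth limits WT replicate 3, where members held 32 to 295 reads.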
